A study of Homo sapiens with 6 samples.

Results

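The BCL2 family was followed in WM164 cells, an established melanoma line with the BRAFV600E mutation. The table of gene counts was searched for 10 gene symbols, BCL2, BCL2L1, BCL2A1, MCL1, BCL2L11, BBC3, PMAIP1, BMF, BAX and BAK1, and all 10 were found among its 60504 genes. The 6 libraries fell into 3 EV libraries, from cells carrying an empty expression vector, and 3 HDAC8 libraries, from cells carrying an HDAC8 expression vector. HDAC8 is a class I histone deacetylase. Both kinds of cells were transfected plasmid lines kept under hygromycin in culture, and the labels list no drug or stress for either group. Neither the labels nor the methods say whether each line was a pool or a single clone, or whether replicates came from separate cultures, so p-values measure only the spread between these libraries. Only transcripts were counted, which leaves protein, phosphorylation and the balance of splice forms unmeasured.

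BCL2 family proteins decide whether the outer mitochondrial membrane is opened, the step that releases cytochrome c and starts the caspases. BCL2, BCL-XL (encoded by BCL2L1), BFL-1 (encoded by BCL2A1) and MCL1 hold the effectors BAX and BAK1 in check. BH3-only proteins, among them BIM (BCL2L11), PUMA (BBC3), NOXA (PMAIP1) and BMF, bind these guards or the effectors and promote opening. In melanoma BCL2A1 and BCL2 are known as targets of the melanocyte lineage factor MITF, and BIM and BMF are known to accumulate when BRAF or MEK is inhibited.

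Of the 10 members, 3 were called, and they belonged to both sides of the family. BCL2A1, a guard, and BCL2L11, which encodes a BH3-only activator, fell in the HDAC8 libraries by log2 fold changes of -1.48 and -1.32. BMF, another BH3-only gene, rose by 0.84. The other 3 guards, the other 2 BH3-only genes and both effectors were not called. To be called, a gene needed a DESeq2 Benjamini-Hochberg adjusted p under 0.05 over the whole table and a log2 fold change no smaller than 0.58 in either direction. Over all genes with an adjusted p, 11.0% were called, 5.57% higher and 5.44% lower, and 13.0% had such a p at any fold change, as did the same 3 members. Among genes with a mean of at least 50 normalized counts, which all members had, 14.0% were called. The members' median log2 fold change was -0.07, against -0.00 over all genes tested.

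The promoters of the 3 called members are shown because they are the genes whose transcript level differed. RefSeq windows (GRCh38.p14, from 250 bases before to 50 after the transcription start) were found for 9 of the 10 members, MCL1 being the other. Each sequence below stops at the start site or, for BMF, at the first annotated exon, and is written 5′ to 3′ on the strand of the gene, with matches to 5 searched motifs in capitals. BCL2A1 is given for chr15:79971197-79971446, minus strand, BCL2L11 for chr2:111120664-111120913, plus strand, and BMF for chr15:40108893-40109129, minus strand. BMF had another window, whose upstream part (chr15:40106967-40107216, minus strand) is not shown.
BCL2A1: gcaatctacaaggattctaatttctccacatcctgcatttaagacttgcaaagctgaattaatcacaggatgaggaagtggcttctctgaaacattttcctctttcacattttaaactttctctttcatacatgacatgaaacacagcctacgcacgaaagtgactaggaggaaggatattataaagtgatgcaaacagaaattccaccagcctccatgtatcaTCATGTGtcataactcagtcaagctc
BCL2L11: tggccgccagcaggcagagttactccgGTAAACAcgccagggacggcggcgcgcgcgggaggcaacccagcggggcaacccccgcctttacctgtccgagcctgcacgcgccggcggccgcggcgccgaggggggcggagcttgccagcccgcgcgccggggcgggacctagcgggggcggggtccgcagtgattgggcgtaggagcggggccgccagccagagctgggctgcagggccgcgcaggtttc
BMF: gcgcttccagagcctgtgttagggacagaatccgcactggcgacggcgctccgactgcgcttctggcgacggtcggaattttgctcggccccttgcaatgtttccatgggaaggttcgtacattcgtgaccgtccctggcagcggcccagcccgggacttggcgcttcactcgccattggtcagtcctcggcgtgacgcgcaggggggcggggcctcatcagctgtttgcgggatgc

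The motifs were the M-box (TCATGTG), bound by MITF, the E-box CACGTG, the AP-1 site (TGANTCA), bound by JUN and FOS dimers, the FOXO site (GTAAACA) and the cyclic AMP response element (TGACGTCA), each read on both strands. The capitals in BCL2A1 mark an M-box at position -26 from the start site, and it was the only M-box among the 11 windows of members. The M-box stood in 2.92% of all 35116 windows. The capitals in BCL2L11 mark a FOXO site at position -223, a motif held by 3.42% of windows. Neither BMF window held any of the 5 motifs. BAX had CACGTG 4 times (7.26% of windows held it at least once), and BBC3 had it once together with an AP-1 site, which stood in 7.71% of windows. A match is a description of letters, and binding was not measured here.

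The vector's own gene was examined first. HDAC8 had 384, 404 and 479 normalized counts (counts divided by the DESeq2 size factor of the library) in EV and 485, 446 and 474 in HDAC8, so the groups overlapped (log2 fold change 0.15, DESeq2 adjusted p = 0.856). The level of this transcript alone gives no check of the labels, so directions are those of the libraries labelled HDAC8 relative to those labelled EV. Total counts ran from 34741083 to 42041462 per library, and the share from mitochondrial genes was 9.66% to 12.8% in EV and 4.46% to 7.94% in HDAC8. Melanocyte markers were present: 7 of 8 had a mean of at least 50 normalized counts, the exception being TYRP1, and MLANA, TYR, DCT, PMEL and S100B were called lower in HDAC8 with none higher. Of these, MLANA, a melanosome antigen, had 8323 to 9052 normalized counts in EV and 237 to 372 in HDAC8 (log2 fold change -4.84, DESeq2 adjusted p = 2.36e-161). For TYR, the enzyme that starts melanin synthesis, the log2 fold change was -1.60 (DESeq2 adjusted p = 3.64e-28). The summed level of 6 fibroblast markers was 2366 to 2869 normalized counts in EV and 1150 to 2188 in HDAC8, most of it LUM, with DCN too low to be tested. Sums were at most 218 for 4 endothelial markers, 132 for 4 epithelial markers and 112 for 3 leukocyte markers, with CDH5 and EPCAM too low to be tested. CD3E had no count in EV and 50.1 to 91.1 normalized counts in HDAC8, with PTPRC at too few reads to be tested, and the part of these genes in the results was not tested.

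Among the guards, BCL2A1 (chromosome 15, 79960892 to 79971196, minus strand, as are all positions of genes here in GENCODE release 44, GRCh38) had 1839, 1327 and 1503 normalized counts in EV and 442, 729 and 507 in HDAC8. Every HDAC8 library lay below every EV library, and HDAC8 replicate 2 was the highest of its group. The mean fell from 1557 ± 260 to 559.6 ± 150.5 (SD, n = 3), a 2.78-fold reduction (95% interval 1.98 to 3.91, DESeq2 adjusted p = 2.10e-07). The call stood in all 16 alternative analyses, from -1.71 to -1.33 on the log2 scale. In bulk RNA, fewer cells with the transcript and less transcript per cell cannot be told apart.

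**Figure D1:**
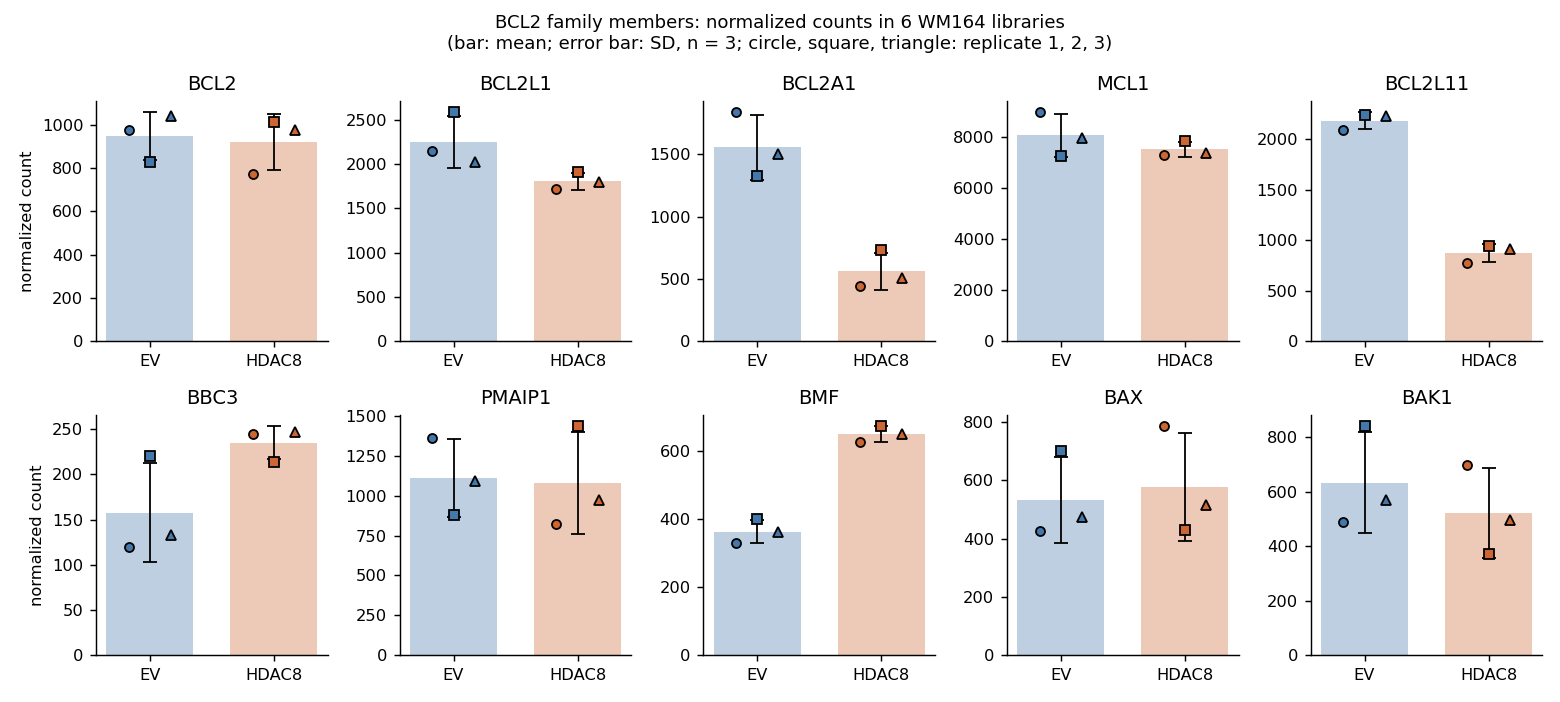
Normalized counts (vertical axes, each from 0) of the 10 members in the EV and HDAC8 libraries; bars are means, error bars SD (n = 3), and circle, square and triangle are replicates 1, 2 and 3. All HDAC8 points of BCL2A1 (442 to 729) and BCL2L11 (775 to 942) lie below their EV points, and all those of BMF (628 to 675) lie above.

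The other guards showed no called change. BCL2L1 (chromosome 20, 31664452 to 31723989, minus strand) had 2149, 2584 and 2021.5 normalized counts in EV and 1714, 1905 and 1797 in HDAC8. Its groups did not overlap either, but the log2 fold change of -0.32 (95% interval -0.67 to 0.03) missed the threshold (DESeq2 adjusted p = 0.267). Groups that do not overlap were found in 4 of the 10 members (BCL2A1, BCL2L11, BMF and BCL2L1) and in 24.0% of all genes tested. The latter share includes genes with means under 50, which no member had. A share among genes with a mean of at least 50 was not taken. MCL1 (chromosome 1, 150560895 to 150579738, minus strand), the short-lived guard, had 8976, 7272 and 7953 normalized counts in EV and 7311, 7841 and 7392 in HDAC8. These groups overlapped, and the 95% interval of its log2 fold change ran from -0.37 to 0.17. BCL2 (chromosome 18, 63123346 to 63320128, minus strand), the founding member, had 977, 827 and 1040.3 normalized counts in EV and 770, 1011 and 977 in HDAC8. The groups overlapped again, with an interval from -0.49 to 0.40.

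Of the BH3-only genes, BCL2L11 (chromosome 2, 111119378 to 111168444, plus strand), which encodes BIM, had 2089, 2235 and 2228 normalized counts in EV and 775, 942 and 910 in HDAC8. The gap between the groups was wide against the spread within them. The mean fell from 2184 ± 82.5 to 875.8 ± 89.0 (SD, n = 3), a 2.49-fold reduction (95% interval 1.94 to 3.20, DESeq2 adjusted p = 6.96e-11). The call stood in all 16 alternatives, and without any one library the log2 fold change stayed between -1.37 and -1.24. BCL2L11 and BCL2A1 were also the only members called when the change itself was required to exceed 0.58 (DESeq2 adjusted p = 0.00337 and 0.0156). BCL2L11 lies across an annotated lncRNA gene on the opposite strand, MIR4435-2HG. The expected counts of MIR4435-2HG were fractional, with 1020.72, 1045.15 and 1268.91 in EV and 1969.07, 1370.97 and 1610.83 in HDAC8. Those of BCL2L11 were whole numbers in every library, and whether counting used strand is not stated.

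BMF (chromosome 15, 40087890 to 40108892, minus strand), whose protein is held at the actin cytoskeleton through dynein light chain until released, had 330.3, 399.7 and 362 normalized counts in EV. It had 628, 675 and 650.1 in HDAC8, and each of these was above every EV value. The mean rose from 363.9 ± 34.8 to 650.9 ± 23.7 (SD, n = 3), a 1.79-fold increase (95% interval 1.25 to 2.57, DESeq2 adjusted p = 0.0172). This call was less secure than the others: limma-voom gave an adjusted p of 0.0511, and without EV replicate 1, EV replicate 3, HDAC8 replicate 2 or HDAC8 replicate 3 the DESeq2 adjusted p was 0.121, 0.0903, 0.063 and 0.095. Its size changed little in those analyses, from 0.77 to 0.91 on the log2 scale over all alternatives.

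BBC3 and PMAIP1, whose proteins bind the guards, were not called. BBC3 (chromosome 19, 47220822 to 47232766, minus strand) had 119.5, 220.4 and 133 normalized counts in EV and 245, 214 and 247 in HDAC8. EV replicate 2 alone reached the HDAC8 values, and the groups overlapped through it. The log2 fold change was 0.58 with a wide interval (-0.28 to 1.43, DESeq2 adjusted p = 0.483), and without EV replicate 2 it was 0.90 (adjusted p = 0.286). PMAIP1 (chromosome 18, 59899996 to 59904305, plus strand) had 1365, 876 and 1091 normalized counts in EV and 821, 1438 and 976 in HDAC8. High and low libraries occurred in both groups, and its interval ran from -0.56 to 0.48.

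The effectors, which form the pores, overlapped between the groups. BAX (chromosome 19, 48954815 to 48961798, plus strand) had 425, 702 and 473 normalized counts in EV and 787, 428 and 516 in HDAC8. BAK1 (chromosome 6, 33572547 to 33580293, minus strand) had 489, 841 and 571 in EV and 697, 372 and 497 in HDAC8. In both genes EV replicate 2 and HDAC8 replicate 1 were the high libraries of their groups. The 95% interval of the log2 fold change was -0.52 to 0.75 for BAX and -0.92 to 0.36 for BAK1, so neither gene was shown to be unchanged.

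**Figure D2:**
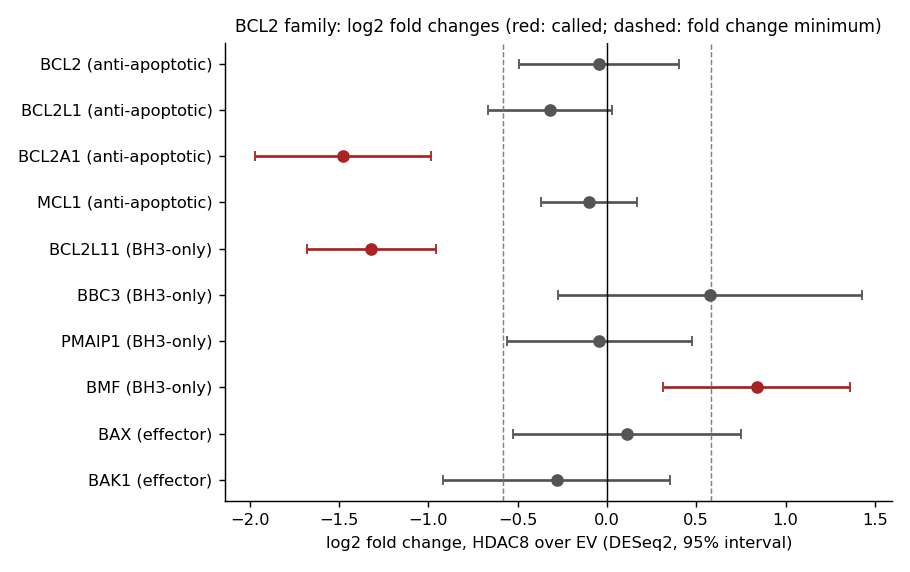
DESeq2 log2 fold change of HDAC8 over EV (horizontal axis) with its 95% interval for each member; red marks the 3 called members and dashed lines the fold change minimum of 0.58. The intervals of BCL2A1, BCL2L11 and BMF lie clear of 0, and those of the other 7 members include it.

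Levels were compared between members per length, as normalized counts per kilobase of the reference (MANE) transcript. This measure takes 1 transcript per gene and is not corrected for the mix of isoforms. In EV, MCL1 (2042 ± 217) and BCL2A1 (1996 ± 334, SD, n = 3) stood at the top, and their libraries overlapped. BCL2L1 (875 ± 115), BAX (671 ± 187) and PMAIP1 (585 ± 129) followed and overlapped as neighbours. Then came BCL2L11 (428 ± 16.2), BAK1 (292 ± 85.0), BCL2 (138 ± 15.9), BBC3 (85.4 ± 29.7) and BMF (77.5 ± 7.41), where only BBC3 and BMF overlapped as neighbours. In HDAC8, MCL1 stood alone at the top with 1902 ± 72.3 counts per kilobase. BCL2A1 (717 ± 193) was then among overlapping neighbours with BAX (726 ± 235) and BCL2L1 (701 ± 37.3). The place of BAX depended on the length used. With the length of the longest transcript its mean was 425, below BCL2A1 (692), PMAIP1 (568) and BCL2L1 (554). BCL2L11 had 172 ± 17.4, just above BMF with 139 ± 5.04, and the libraries of these neighbours did not overlap.

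As shares of the summed level per kilobase of the 4 guards, BCL2A1 made up 42.1%, 36.5% and 39.5% in EV, but 17.7%, 24.6% and 19.4% in HDAC8. MCL1 made up 40.5%, 39.4% and 41.3% in EV and 57.9%, 52.1% and 55.7% in HDAC8. Shares of a sum are tied to each other, and the mean level of MCL1 itself was 2042 per kilobase in EV and 1902 in HDAC8. BCL2L1 took 17.5% ± 3.53 and 20.3% ± 0.785, and BCL2 2.74% ± 0.315 and 3.86% ± 0.359 (SD, n = 3). Among the 4 BH3-only genes, the share of BCL2L11 was 36.6% ± 3.76 in EV and 17.3% ± 1.65 in HDAC8, and that of BMF 6.64% ± 1.07 and 14.0% ± 1.90. BBC3, which was not called, had 7.38% ± 3.02 and 13.0% ± 3.05. PMAIP1 held the largest share of the 4 in both groups (49.4% ± 7.56 and 55.7% ± 6.45). With the length of the longest transcript in place of the reference one, the mean BCL2A1 share was 42.4% in EV and 22.7% in HDAC8.

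**Figure D3:**
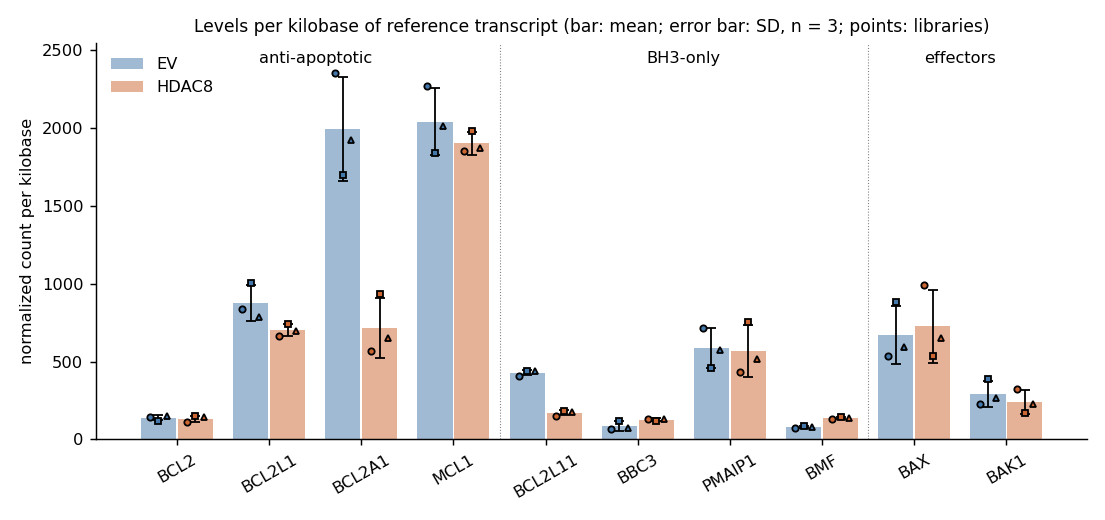
Normalized counts per kilobase of reference transcript (vertical axis, from 0) for each member in EV and HDAC8; bars are means, error bars SD (n = 3), points are libraries. BCL2A1 stands beside MCL1 in EV (1996 and 2042) and beside BAX and BCL2L1 in HDAC8 (717, 726 and 701).

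The members varied within groups along their base composition. Transcript GC content (longest transcript) ran from 36.7% in PMAIP1 and 40.9% in BCL2A1 to 58.9% in BAX and 69.7% in BBC3. In EV replicate 2, the log2 deviation from the group mean ran from -0.32 in PMAIP1 and -0.22 in BCL2A1 to 0.43 in BAX and 0.53 in BBC3. HDAC8 replicate 1 had -0.35 in PMAIP1, -0.31 in BCL2A1 and 0.49 in BAX, but only 0.06 in BBC3. HDAC8 replicate 2 had the opposite signs, with 0.46, 0.41, -0.38 and -0.13. Over the 10 members Pearson's r between GC content and deviation was -0.921, 0.956 and -0.742 in EV replicates 1, 2 and 3, and 0.688, -0.775 and 0.322 in HDAC8 replicates 1, 2 and 3. These points share a library, and the deviations of a group sum to 0, so the r values are a description. Over all genes with a mean of at least 50, EV replicate 2 and HDAC8 replicate 1 showed the same signs. The 3881 genes with at least 55% GC had a median deviation of 0.21 in EV replicate 2 and 0.25 in HDAC8 replicate 1. The 5683 genes with at most 45% GC had -0.13 and -0.23. In HDAC8 replicate 3 the medians of these GC-rich and GC-poor genes were -0.05 and 0.08, opposite in direction to the members' r of 0.322. With normalization within 20 bins of GC content, the log2 fold change was -1.33 for BCL2A1, -1.31 for BCL2L11 and 0.77 for BMF, and all 3 were called (DESeq2 adjusted p = 2.37e-09, 9.86e-15 and 0.0183). BCL2L1 then had -0.41 (adjusted p = 0.0623) and BBC3 0.41 (adjusted p = 0.61). How far base composition sets the levels of BAX, BAK1, BBC3 and PMAIP1 was not tested.

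**Figure D4:**
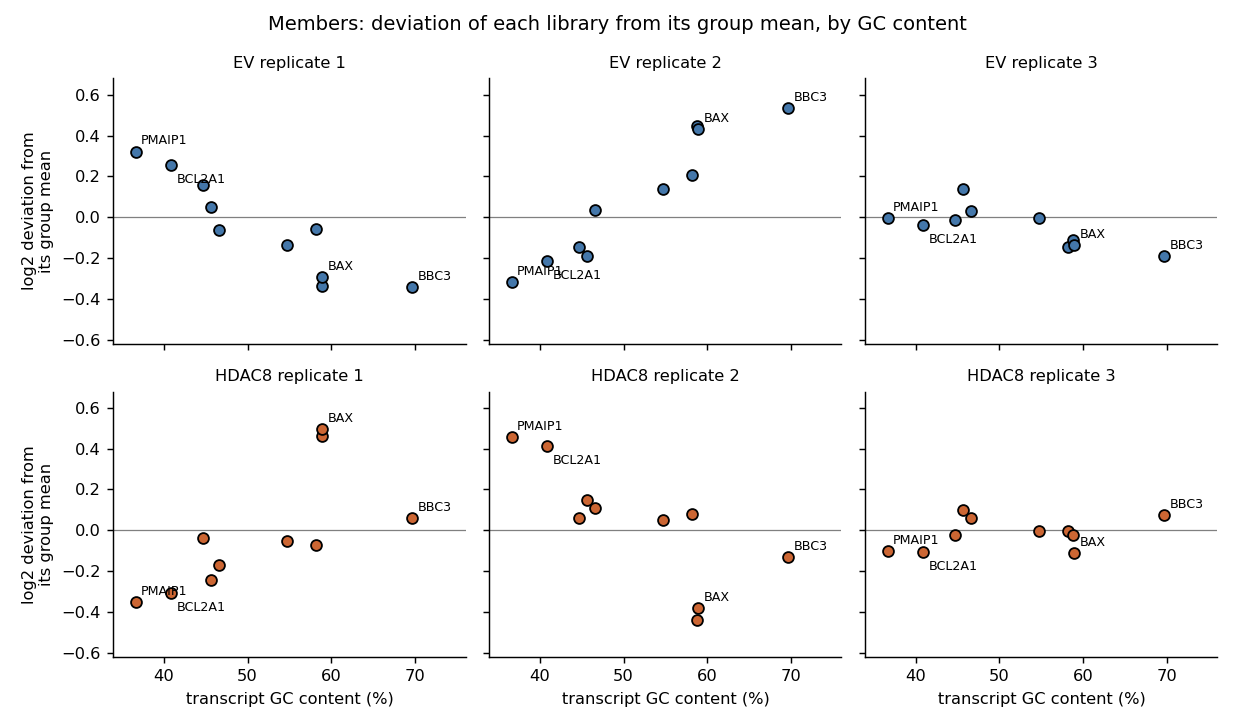
Each panel is 1 library and each point 1 member; the horizontal axis is transcript GC content in percent and the vertical axis the log2 deviation of that library from the mean of its group. The points rise with GC content in EV replicate 2 (r = 0.956) and fall in EV replicate 1 (r = -0.921).

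BAX and BAK1 have almost the same GC content (58.9% and 58.8%), and their ratio was steady within groups although both genes varied. BAX over BAK1, in normalized counts, was 0.869, 0.835 and 0.828 in EV and 1.13, 1.15 and 1.04 in HDAC8. All 3 HDAC8 ratios were above all 3 EV ratios, and the mean log2 ratio was -0.25 ± 0.04 against 0.15 ± 0.08 (SD, n = 3), a difference of 0.39. The ratio was chosen after the values had been seen, so it is given as a description. An exact two-sided permutation test of the log2 ratio (20 permutations) gave p = 0.1. With 3 libraries in each group this is the lowest p that test can give, so it cannot weigh the difference. Neither gene was called on its own.

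Other genes of the pathway were read from the same fit. Of the 11 other BCL2 family genes, 1 was called. HRK, a BH3-only gene, fell from 1162 ± 37.1 to 681.0 ± 176.6 normalized counts (SD, n = 3, log2 fold change -0.77, DESeq2 adjusted p = 0.0182), and without EV replicate 1, 2 or 3 or HDAC8 replicate 3 it was not called (adjusted p = 0.0814, 0.0918, 0.0998 and 0.0886). BIK, BCL2L10, BCL2L14 and BCL2L15 had means under 50. Of the 11 apoptosome and caspase genes, CASP2, an initiator caspase, rose from 2597 ± 378 to 4458 ± 599 (0.78, DESeq2 adjusted p = 1.73e-04), and none was called lower. DFFA and CYCS had log2 fold changes of -0.43 and -0.48 (DESeq2 adjusted p = 0.0362 and 0.0472), short of the fold change minimum. Of the 9 inhibitors of apoptosis and their antagonists, HTRA2, a mitochondrial protease that relieves caspase inhibition, rose from 878.6 ± 46.0 to 1536 ± 272 (0.81, DESeq2 adjusted p = 0.00236), and none was called lower. BIRC3 had too few reads to be tested.

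Of the 8 death receptor and adaptor genes, FAS, a death receptor, fell from 252.0 ± 85.1 to 79.0 ± 16.1 normalized counts (SD, n = 3, log2 fold change -1.67, DESeq2 adjusted p = 0.00616), a call lost without EV replicate 1 (adjusted p = 0.164). RIPK1, a kinase of the same complexes, rose by 0.63 (DESeq2 adjusted p = 0.0257), and that call was lost with limma-voom (0.0598) and without EV replicate 1 or 3 or HDAC8 replicate 2 or 3 (0.0697, 0.202, 0.0801 and 0.0556). TNFRSF10A had no reads to test. None of the 6 binding partners and stability factors of members, such as the dynein light chains DYNLL1 and DYNLL2, was called.

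Of 11 transcription factors with known BCL2 family targets, 1 was called higher and 2 lower. JUN, a subunit of AP-1, rose from 573.5 ± 44.2 to 1301 ± 335 normalized counts (SD, n = 3, log2 fold change 1.18, DESeq2 adjusted p = 4.62e-05). ATF4, the factor of the integrated stress response, fell from 20572 ± 1185 to 12405 ± 635 (-0.73, DESeq2 adjusted p = 1.27e-07), and its partner DDIT3 fell by 0.94 on the log2 scale (DESeq2 adjusted p = 6.15e-05). MITF had 17824, 16257 and 17935 normalized counts in EV and 11314, 17920 and 16096 in HDAC8, groups that overlapped (DESeq2 adjusted p = 0.544). Across these 6 lists 4 of 56 genes were called higher and 4 lower, where 53 had an adjusted p. Over all genes with an adjusted p, 5.57% were called higher and 5.44% lower, and 14.0% of those with a mean of at least 50 were called. The median log2 fold change of the 54 tested in the lists was -0.01. No list was tested as a set.

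**Figure D5:**
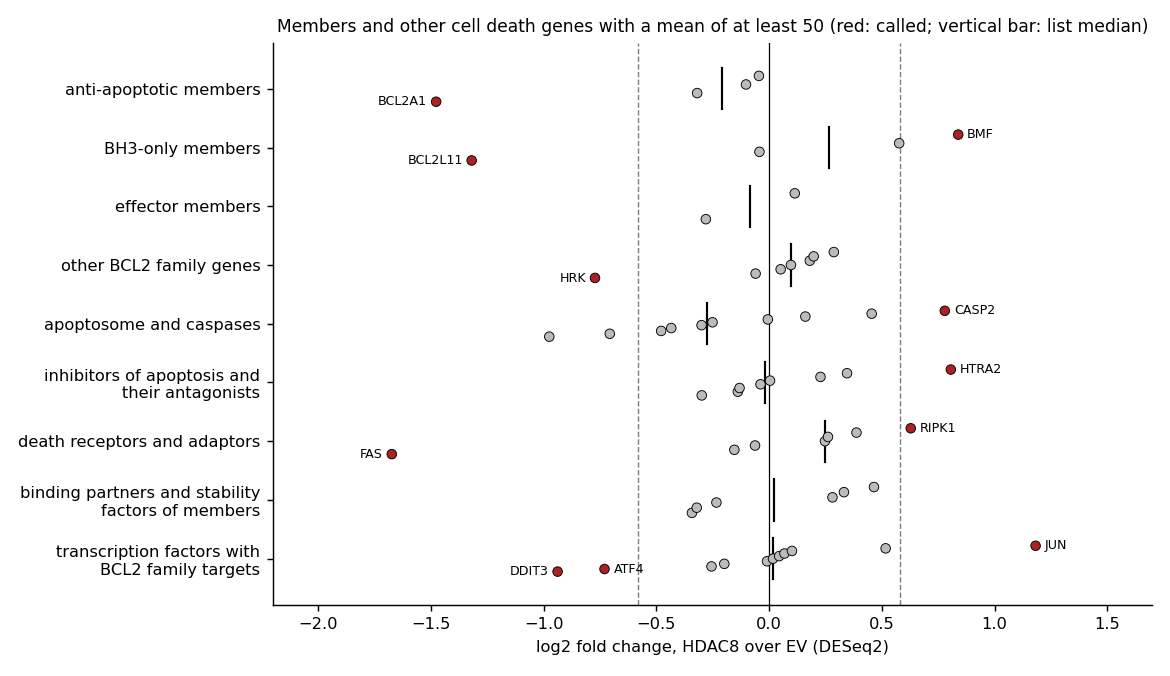
Each point is the DESeq2 log2 fold change of HDAC8 over EV (horizontal axis) of 1 gene with a mean of at least 50 normalized counts, by list; red points are called, vertical bars are list medians and dashed lines the fold change minimum of 0.58. In every list shown the uncalled points outnumber the called ones, apart from the BH3-only members with 1 called higher and 1 lower.

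The genes around the called members were read as well. For BCL2A1 the nearest tested protein-coding genes were ZFAND6, whose mean was 1666 ± 296 normalized counts in EV, then 1082 ± 360 in HDAC8 (SD, n = 3, log2 fold change -0.62, DESeq2 adjusted p = 0.0925), and the readthrough gene ST20-MTHFS, with 0 to 92.3. For BCL2L11 they were ACOXL, with 0 to 31.8, and ANAPC1 (-0.19, DESeq2 adjusted p = 0.458), and for BMF SRP14 (-0.29, adjusted p = 0.417) and BUB1B (0.07, adjusted p = 0.871). None of these 6 neighbours was called. Over the 6 libraries, the genes most like BCL2A1 among 14451 were ST3GAL5, KCTD6 and TTC39B, with Pearson's r of 0.998, 0.997 and 0.996 on log2(normalized count + 1). These libraries form separated groups, which sets much of such an r, and 328 genes had an r over 0.95.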

How the data were processed

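Total RNA of 6 WM164 libraries was sequenced as paired-end reads. After trimming (Trimmomatic) and alignment to transcripts (STAR), the authors ran RSEM, and they deposited its expected counts for each gene, with no scaling between libraries. Genome build, annotation release, strand and duplicate handling are not given in the sources used here. Of the members, 8 had whole expected counts in every library, and BCL2L1 and BAK1 had fractional ones, which can arise when a read is shared with another gene. ABALON, an annotated lncRNA gene overlapping BCL2L1 on the opposite strand, had fractional counts too. They were 81.65, 177.07 and 151.06 in EV and 257.16, 35.85 and 27.35 in HDAC8. Sharing of reads between ABALON and BCL2L1 was not tested.

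Expected counts were rounded and tested with DESeq2 1.42.0 (R 4.3.3, Wald test, two-sided, no covariates) over 26162 genes with a total of at least 10, and Benjamini-Hochberg adjustment over the 21021 genes with an adjusted p. Thresholds were those of the study's methods. Members were read from that fit, with no adjustment over the members alone. Positions, lengths and GC content came from GENCODE release 44 (56558 identifiers matched), and promoters from RefSeq (GRCh38.p14). Size factors ran from 0.918 to 1.17. The sources name no molecular identifiers, so a read may not be an independent molecule. Intervals are at the 95% level.

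The members and lists were chosen with earlier results of these data known. Every called gene of the 6 cell death lists is named (at most 4 a list), with the nearest tested protein-coding neighbours of called members and the 3 genes most like the called member of greatest change. Of the genes first listed, 2 are not reported here. The motifs were chosen after the calls were seen. Alternatives were edgeR 4.0.16 (quasi-likelihood), limma-voom (limma 3.58.1), other size factors and filters, a fit without mitochondrial genes, a replicate block, a test against the fold change minimum and each library left out in turn. GC-bin normalization was added after the data had been seen. The fits were tested on simulated counts that had no GC trend between libraries, so that test does not cover the GC trends seen here.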

Additional observations from a re-analysis of the deposited data

How the results depend on the processing

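Over all genes, 1170 were called higher and 1143 lower. The test against the fold change minimum, which asks for more than the fold itself, left 292 and 291 genes, 2 members (BCL2A1 and BCL2L11) and 0 of the 8 genes called in other lists. When libraries were left out in turn, the number called was 877 to 1218 higher and 746 to 1378 lower (746 without EV replicate 3), with 5 to 10 genes of the other lists (5 without EV replicate 1). BCL2A1 and BCL2L11 were called in all 16 alternatives and BMF in 9, so 2 or 3 members were called throughout. Among uncalled members the direction changed without single libraries in BCL2 (-0.14 to 0.07), PMAIP1 (-0.30 to 0.13) and BAX (-0.18 to 0.36), and with GC-bin normalization in PMAIP1 (0.12) and BAX (-0.01). The cause was not tested. With the longest transcript as length, 5 of 10 members kept their rank of level in EV. BAX has 1358 bases in its longest and 795 in its reference transcript. It moved from rank 4 to rank 6 in EV and from rank 2 to rank 5 in HDAC8. Between libraries of the same replicate number, the correlations of deviations were -0.03, -0.07 and 0.04. These deviations also hold the GC trend of each library, so they do not settle whether replicates were paired. With the replicate block, 1075 genes were called higher and 1078 lower, 2 members were called, and BMF (0.84, adjusted p = 0.0649) and RIPK1 (0.64, adjusted p = 0.0544) were not. BBC3 had the fewest counts of the members, 114 to 286 per library, and how far depth limited it was not tested.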
